A study of Mus musculus with 12 samples.

Results

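The 10 genes described here mark states of macrophages, and they were chosen by name: the genes of 4 injury-type markers (Arg1, Chil3, Nos2 and Trem2) and of 6 resident-type markers (Mrc1, Cd163, Lyve1, Folr2, Timd4 and Retnla). Total RNA of mouse hearts was measured on 12 single-colour Agilent arrays in 4 groups of 3. WT are wild-type hearts, WT+MI are wild-type hearts after myocardial infarction (MI), TG are hearts of mice that carry a transgene for the long non-coding RNA CCRR, and TG+MI are such hearts after infarction. The strain is given as C57/BL6 for WT and WT+MI. Not given in the sources used here are the strain of the transgenic mice, the promoter of the transgene, the age of the mice, the time from infarction to sampling, the part of the heart taken and whether each array of a group stands for its own animal. A strain difference can therefore not be told apart from the transgene, and p-values measure the spread between these arrays, which may be technical. All 10 genes passed the filter on dim probes and are among 19761 genes tested, out of 36981 genes with a probe on the array. Levels are given as scaled signal, which is the processed intensity brought to the same 75th percentile (195) on each array. A level can be compared between arrays for 1 gene, but not between genes. WT, WT+MI, TG 1 and TG 2 were on slide 1, and TG 3 and the TG+MI arrays on slide 2, which was scanned separately. TG 1 stood apart from the other 11 arrays by its adipocyte markers, given with the TG results.

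Macrophages of the healthy heart are largely long-lived resident cells that clear debris and carry receptors such as CD163, LYVE1, FOLR2 and TIMD4. After an infarction, monocytes from the blood enter the dead muscle and become macrophages with another gene programme, in which arginase 1 and chitinase-like 3 are well known. Interleukin 4 and interleukin 13, through STAT6, induce Arg1, Chil3, Retnla and Mrc1 together in cultured macrophages, while bacterial products and interferon gamma induce Nos2. These arrays hold RNA of whole tissue, so fewer cells of a type and less RNA per cell cannot be told apart.

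The probes of Arg1 and Folr2 are shown because they report an injury-type gene that rose and a resident-type gene that fell after infarction, and because each holds 1 reading frame with no stop codon over its 60 bases. The Arg1 probe lies at chr10:24636194-24636253 on the minus strand and the Folr2 probe at chr7:108988771-108988830 on the minus strand, both on the mm9 build of the array files, whose exon annotation was not used here.
Arg1 probe: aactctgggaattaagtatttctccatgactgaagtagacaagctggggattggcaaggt
Folr2 probe: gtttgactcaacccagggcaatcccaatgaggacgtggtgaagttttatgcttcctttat

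The RefSeq promoter table (GRCm38.p6) held 7 of the 10 genes, Mrc1, Cd163, Folr2, Timd4, Retnla, Chil3 and Trem2. Promoters of Chil3, Trem2 and Retnla are shown because these genes had the largest log2 differences after infarction among the 7, Chil3 and Trem2 upwards and Retnla downwards. Each sequence gives the 250 bases before the start site, 5′ to 3′ in the gene's direction: Chil3 at chr3:106167565-106167814 on the minus strand, Retnla at chr16:48842359-48842608 on the plus strand and Trem2 at chr17:48346151-48346400 on the plus strand. Capitals mark matches to the STAT6 motif (TTCNNNNGAA) and the C/EBP motif (TTNNGNAA) in Chil3 and Retnla, and to the AP-1 motif (TGANTCA) and the PU.1 motif (GAGGAA) in Trem2, on either strand.
Chil3 promoter: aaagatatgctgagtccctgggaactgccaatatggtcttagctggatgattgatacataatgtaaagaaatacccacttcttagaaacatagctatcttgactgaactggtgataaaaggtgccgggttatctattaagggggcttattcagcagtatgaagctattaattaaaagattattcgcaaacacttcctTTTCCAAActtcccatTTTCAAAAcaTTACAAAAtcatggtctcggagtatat
Retnla promoter: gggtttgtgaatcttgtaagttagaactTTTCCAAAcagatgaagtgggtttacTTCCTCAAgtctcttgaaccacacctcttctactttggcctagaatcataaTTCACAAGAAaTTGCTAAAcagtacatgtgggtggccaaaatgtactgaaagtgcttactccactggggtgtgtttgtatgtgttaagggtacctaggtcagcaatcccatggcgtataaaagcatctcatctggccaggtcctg
Trem2 promoter: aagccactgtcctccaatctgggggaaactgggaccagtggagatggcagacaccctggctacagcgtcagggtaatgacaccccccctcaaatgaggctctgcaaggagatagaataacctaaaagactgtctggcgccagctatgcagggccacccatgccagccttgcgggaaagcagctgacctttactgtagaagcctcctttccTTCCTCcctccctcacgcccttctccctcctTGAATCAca

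Matches were counted over 250 bases before to 50 after the start on both strands, and the shares below are over all 32841 promoters of that length. The C/EBP motif occurred 3 times in Chil3, at -53, -37 and -27, and 3 times in Retnla, at -222, -196 and -134. It also occurred in Mrc1 at -70 and -69 and in Cd163 at -158 and -157, where each pair overlaps, in Folr2 at 10 after the start and in Trem2 at 23 after the start, and 40.7% of promoters hold it. The STAT6 motif occurred once among the members, in Retnla at -145, where 6.95% of promoters hold it. The AP-1 motif (7.81% of promoters) occurred in Trem2 at -9 and in Folr2 at -74. The PU.1 motif (28.3%) occurred in Trem2 at -40, in Mrc1 at -180, -167 and -35, and in Retnla at -196, where it overlaps the C/EBP match at the same position. The MAF motif (TGCTGA, 19.5% of promoters) was found in Chil3, Retnla, Folr2 and Timd4. NRF2 (TGANNNNGC, 41.3%) was found in Chil3, Retnla, Folr2 and Timd4, NF-kappaB (GGGNNNNNCC, 50.8%) in Chil3, Mrc1, Cd163 and Timd4, and HIF (ACGTG, 19.6%) in Cd163. IRF (GAAANNGAAA, 3.44%) had 0 matches. These are matches of letters only.

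WT+MI was compared with WT to give the effect of infarction without the transgene. Of the 4 injury-type genes, 3 rose (Arg1, Chil3 and Trem2) and Nos2 did not pass the test. The 6 resident-type genes split: Retnla and Folr2 fell, Lyve1 rose, and Mrc1, Cd163 and Timd4 did not pass. In all, 4 of 10 members rose and 2 of 10 fell, where 18.6% of all tested genes were called higher and 29.3% lower (limma, adjusted p under 0.05). The median log2 difference was 4.42 over the injury-type genes, or 4.40 with Arg1 at its lower bound, and -0.33 over the resident-type genes, against -0.14 over all tested genes. Markers of other tissue stood apart too. Atrial markers (Sln, Myl4, Myl7 and Nppa) summed to between 45742 and 131744 in WT+MI and between 10602 and 10889 in WT. Of these 4 genes 1 was called higher. The 6 fibroblast markers summed to between 41211 and 54040 against 73896 to 89343, and 3 of them fell. Erythroid markers summed to between 118720 and 147028 against 191468 to 321758, and 3 of 5 tested fell. The part of all these markers in the differences of the members was not tested. Differences below are log2 values with the standard error of the limma fit, and n is 3 in each group.

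**Figure D1:**
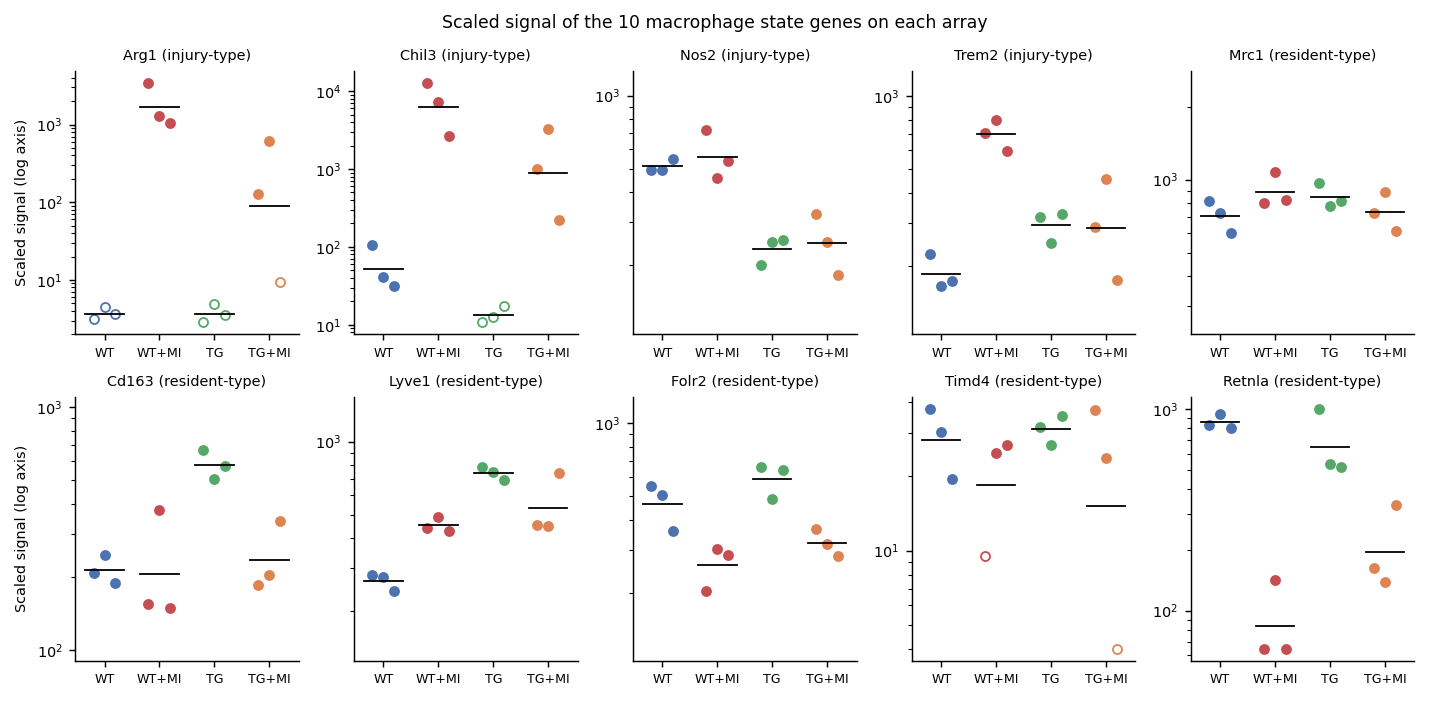
Scaled signal (log axis) of each of the 10 genes on the 12 arrays, by group. Filled points were well above background, open points were not, and the line is the geometric mean of a group. The WT+MI points of Arg1 lie between 1040 and 3458, above every point of the other groups.

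Arg1 encodes arginase 1, which turns arginine into ornithine and urea. Its scaled signal was 3.14, 4.42 and 3.60 on the WT arrays, none of them well above background, and 3458, 1285 and 1040 on the WT+MI arrays. The groups did not overlap. Against the background level the gene was at least 119-fold higher after infarction, where the bound sets the mean of the bright group against the lowest signal of probes well above background (log2 difference 8.82 ± 1.15, limma adjusted p = 0.000362).

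Chil3 encodes chitinase-like 3, or Ym1, a secreted lectin of mouse macrophages and of neutrophils. Its scaled signal was 107, 41.0 and 31.2 on the WT arrays and 12835, 7246 and 2675 on the WT+MI arrays. Each WT+MI array exceeded each WT array, and the difference was 6.93 ± 0.88 (limma adjusted p = 0.000325), a 122-fold ratio of geometric means. The summed signal of 13 neutrophil markers also moved, from between 27513 and 30810 in WT to between 60005 and 98682 in WT+MI. It was highest on WT+MI 1, where Arg1 and Chil3 were highest too. Of 11 neutrophil markers tested 6 rose and 2 fell, and their part in the Chil3 signal was not tested.

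Trem2 encodes a lipid receptor of macrophages that signals through the adaptor TYROBP. Its scaled signal was 223, 165 and 172 in WT and 707, 801 and 596 in WT+MI. The 2 groups were well apart, with a difference of 1.91 ± 0.29 (limma adjusted p = 0.000723), which is 3.76-fold. Nos2, the inducible nitric oxide synthase that shares arginine as a substrate with arginase, had 495, 495 and 547 in WT and 718, 457 and 538 in WT+MI. The ranges overlapped, and the difference was 0.13 ± 0.22 (95% interval -0.35 to 0.61, limma adjusted p = 0.640).

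Retnla encodes resistin-like alpha, or FIZZ1, a secreted protein. Its scaled signal fell from 832, 939 and 807 in WT to 65.0, 143 and 64.8 in WT+MI. Every WT+MI array lay below every WT array, by 10.2-fold on geometric means (-3.35 ± 0.39, limma adjusted p = 0.000239). Only 0.0354% of the tested genes had a lower difference in this comparison.

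Folr2, the folate receptor beta gene, had 553, 504 and 359 in WT and 204, 302 and 285 in WT+MI. The groups did not overlap, and the difference was -0.83 ± 0.21 (limma adjusted p = 0.00797), a 1.78-fold drop. Lyve1, which encodes a hyaluronan receptor, rose from 282, 277 and 242 in WT to 441, 487 and 427 in WT+MI (0.76 ± 0.18, limma adjusted p = 0.00591). All WT+MI arrays were above all WT arrays, 1.69-fold on geometric means.

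Lyve1 is also a marker of lymphatic endothelium, whose 6 other markers were well above background in WT on all 3 arrays. Their summed signal was between 2808 and 3441 in WT and between 6085 and 7543 in WT+MI. Of these 6 genes Pdpn (podoplanin) rose by 3.98 ± 0.48 (limma adjusted p = 0.000264), while the lymphatic factor Prox1 (-1.39 ± 0.23, adjusted p = 0.000976), the chemokine gene Ccl21a (-2.18 ± 0.50, adjusted p = 0.00526) and Reln (-1.07 ± 0.32, adjusted p = 0.0194) fell. Their part in the Lyve1 signal was not tested.

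Mrc1, the mannose receptor gene, had 814, 730 and 603 in WT and 798, 1072 and 821 in WT+MI. The ranges overlapped (0.32 ± 0.18, 95% interval -0.07 to 0.72, limma adjusted p = 0.154). Cd163 encodes the scavenger receptor for haptoglobin and haemoglobin, with 207, 246 and 188 in WT and 154, 377 and 149 in WT+MI. WT+MI 2 was the highest of these 6 arrays and the other 2 of its group were the lowest (-0.05 ± 0.34, limma adjusted p = 0.913). Timd4, which encodes the phosphatidylserine receptor TIM-4, was dim throughout: 37.6, 30.4 and 19.6 in WT and 9.53, 24.9 and 26.8 in WT+MI, where WT+MI 1 was not well above background (-0.61 ± 0.70, limma adjusted p = 0.501).

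**Figure D2:**
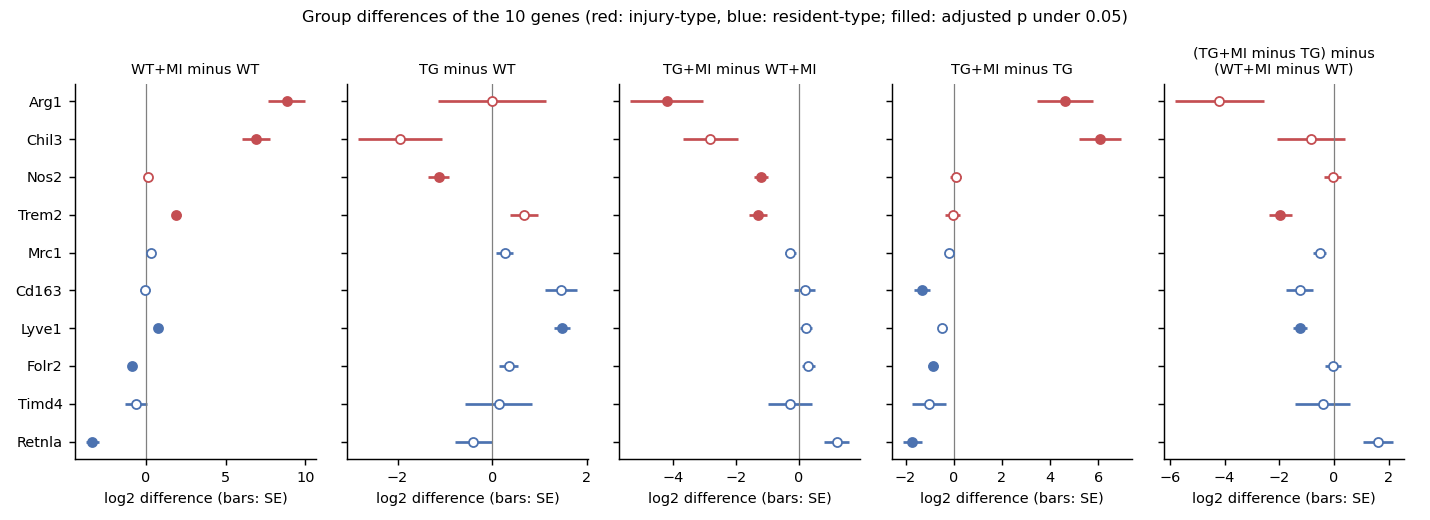
Log2 differences of the 10 genes (x axis, with the standard error as bars) in the 5 comparisons, with injury-type genes in red and resident-type genes in blue. Filled points have a limma adjusted p under 0.05. Arg1 and Chil3 stand farthest right after infarction of wild-type hearts, at 8.82 and 6.93, and Retnla farthest left, at -3.35.

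TG was compared with WT to give the difference without infarction. Lyve1 rose and Nos2 fell, so that 1 of 10 members was called higher and 1 of 10 lower, where 1.49% of all tested genes were called higher and 1.13% lower. The median difference was 0.30 over the resident-type genes and -0.57 over the injury-type genes, against -0.06 over all tested genes. Within slide 1 every WT array was in the first row and both TG arrays in the other, so position and group cannot be told apart there.

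Lyve1 was at 787, 746 and 692 on the TG arrays. All 3 lay above all WT and all WT+MI arrays, and the difference from WT was 1.48 ± 0.18 (limma adjusted p = 0.00485), which is 2.78-fold. A block for the slide, under which this comparison rests on the arrays of slide 1, gave 1.52 (limma adjusted p = 0.0137, or 0.00411 in a fit of slide 1 alone), and leaving out TG 1 gave 1.43 (adjusted p = 0.0182). The summed lymphatic markers were between 2676 and 3497 in TG, a range that overlaps that of WT, and 0 of 6 passed the limma test there, with 1 of 6, Prox1, at an unadjusted p under 0.05 (-0.59 ± 0.23).

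Cd163 was at 668, 506 and 575 on the TG arrays, again above every WT and WT+MI array. The difference of 1.45 ± 0.34 did not pass the threshold (2.73-fold, 95% interval 0.69 to 2.21, limma adjusted p = 0.0537). The adjusted p of the limma fit was 0.0496 without WT+MI 1, 0.0154 without WT+MI 2 and 0.0358 without TG+MI 3, and it was 0.175 without TG 1, 0.105 with the slide as a block and 0.109 on slide 1 alone. A further Cd163 probe was not used because its spot on TG+MI 1 was marked an outlier. It was well above background on 1 of 3 TG arrays and on 0 of 6 WT and WT+MI arrays. It was also so on TG+MI 1, by the flagged spot, and on TG+MI 3. Its signal on TG+MI 3 was 18.2, against 15.6 to 17.5 on the TG arrays and 6.01 on TG+MI 2.

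Nos2 was at 201, 249 and 253 on the TG arrays, below all WT arrays. The drop was -1.14 ± 0.22 (limma adjusted p = 0.0247), or 2.20-fold. A block for the slide gave -1.19 (limma adjusted p = 0.0527, or 0.0360 in a fit of slide 1 alone). Leaving out any 1 of the 6 WT and TG arrays kept the value between -1.19 and -1.03 and raised the adjusted p to between 0.0527 and 0.0963. The summed signal of 6 vascular endothelium markers was between 30716 and 31640 in WT and between 22281 and 23405 in TG, and 1 of them, Egfl7, fell (-0.41 ± 0.09, limma adjusted p = 0.0449). Egfl7 is also among the genes whose level followed Nos2 most closely, and its part in the Nos2 difference was not tested.

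Chil3 was at 10.7, 12.8 and 17.4 on the TG arrays, none of them well above background, against 3 of 3 WT arrays that were. The lower bound on the fold, which compares group means and leaves out the spread between arrays, was 3.1 in the direction of lower in TG. The difference of Chil3 was not called (-1.95 ± 0.88, limma adjusted p = 0.279). Its confidence interval in the limma fit ran from -3.90 to -0.00033, so a difference near no change is not excluded. The summed neutrophil markers were between 22761 and 24858 in TG, below all WT arrays, and 3 of 11 (S100a9, Camp and Ltf) fell. Erythroid markers summed to between 72822 and 137049 in TG, against 191468 to 321758 in WT, with 0 of 5 tested called. The part of both sets of markers in the Chil3 difference was not tested. Arg1, at 2.84, 4.89 and 3.58 in TG, was not well above background in either group. Trem2, at 318, 247 and 327 in TG, lay above all WT arrays and below all WT+MI arrays (0.67 ± 0.29 against WT, limma adjusted p = 0.262).

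Folr2 in TG was at 659, 485 and 640, Mrc1 at 969, 780 and 816, Timd4 at 31.7, 26.8 and 35.2, and Retnla at 998, 535 and 515. All 4 overlapped WT, with differences between -0.40 and 0.34 and adjusted p-values of at least 0.425 in the limma fit. Retnla, which is also made by adipocytes, was highest on TG 1. That array also had the highest summed signal of 9 adipocyte markers, 32256 against 1725 and 2283 on the other 2 TG arrays and 395 to 1139 in WT. Without TG 1 the Retnla difference was -0.71 (limma adjusted p = 0.565). Atrial markers (Sln, Myl4, Myl7 and Nppa) summed to between 92784 and 291092 in TG and between 10602 and 10889 in WT, and Nppa (2.82 ± 0.39, limma adjusted p = 0.00740) and Myl4 (6.92 ± 1.57, adjusted p = 0.0476) rose. The part of adipocyte and atrial tissue in the differences of TG from WT was not tested.

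**Figure D3:**
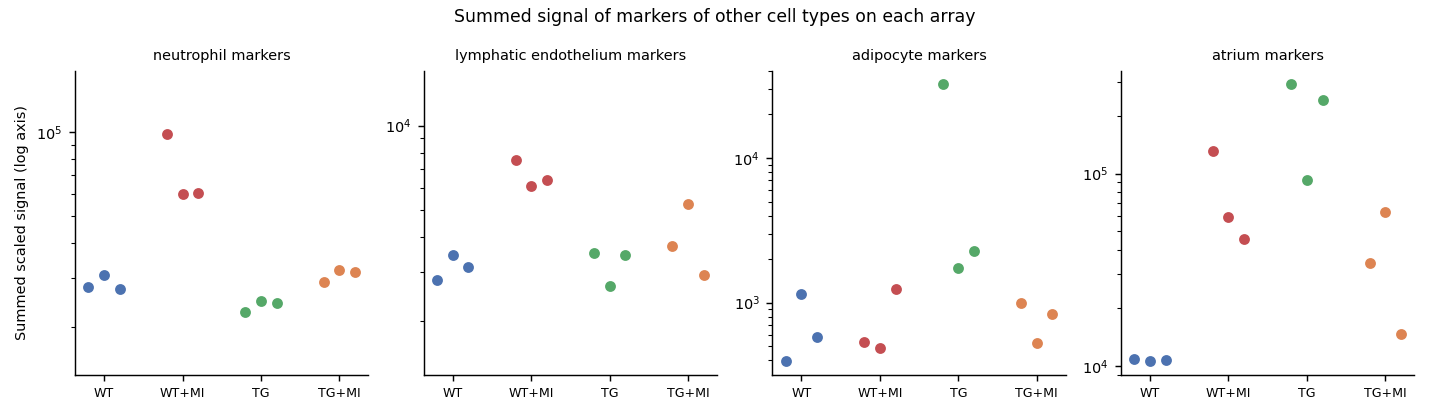
Summed scaled signal (log axis) of the markers of neutrophils, lymphatic endothelium, adipocytes and atrium on each array, by group. The adipocyte markers stand at 32256 on TG 1, and the neutrophil markers of WT+MI lie between 60005 and 98682, above the other groups.

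TG+MI was compared with WT+MI to give the difference between genotypes after infarction. Arg1, Trem2 and Nos2, 3 of the 4 injury-type genes, were lower in TG+MI, and 0 of 6 resident-type genes passed the test (limma), with 1 of 6, Retnla, at an unadjusted p under 0.05. So 3 of 10 members were called lower and 0 of 10 higher, where 7.79% of all tested genes were called higher and 4.38% lower. The median was -2.05 over the injury-type genes and 0.21 over the resident-type genes, against 0.09 over all tested genes. The 2 groups share no slide, so group and slide cannot be told apart in this comparison.

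Arg1 was at 128, 617 and 9.39 on the TG+MI arrays, the last of which was not well above background. Each was below each WT+MI array, and the difference was -4.20 ± 1.15 (limma adjusted p = 0.0431). Trem2 was at 290, 457 and 174, again below all WT+MI arrays (-1.29 ± 0.29, limma adjusted p = 0.0306, 2.45-fold). Nos2 was at 326, 248 and 183, also below all WT+MI arrays (-1.19 ± 0.22, limma adjusted p = 0.0242, 2.28-fold).

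TG+MI 3 was the lowest of its group for Arg1, Chil3, Nos2, Trem2, Mrc1, Folr2 and Timd4, and the highest for Cd163, Lyve1 and Retnla. Without it the differences were -2.57 for Arg1 (limma adjusted p = 0.0763), -0.94 for Trem2 (adjusted p = 0.0747) and -0.98 for Nos2 (adjusted p = 0.0716). None of the 3 passed without WT+MI 1 either (adjusted p = 0.144, 0.0930 and 0.0781) or without TG+MI 1 (adjusted p = 0.0997, 0.0897 and 0.0829). The calls over all tested genes fell with them, from 2405 to 4 without TG+MI 3, 45 without WT+MI 1 and 0 without TG+MI 1. Trem2 also missed the threshold without WT+MI 2 (adjusted p = 0.0611). Arg1 missed it when any 1 array other than WT+MI 3 and TG+MI 2 was left out, with a highest adjusted p of 0.144. With the slide as a block, which is estimated from TG 3 against the other TG arrays, the differences were -4.14, -1.51 and -1.37 (adjusted p = 0.680, 0.648 and 0.648), and 0 of 19761 tested genes were called.

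Chil3 was at 1010, 3265 and 221 in TG+MI. TG+MI 2 fell within the range of WT+MI and the other 2 below it, and the difference was -2.80 ± 0.88 (limma adjusted p = 0.0599). It passed without WT+MI 3 (adjusted p = 0.0401) and without TG+MI 2 (adjusted p = 0.0184). The neutrophil markers summed to between 29003 and 32125 in TG+MI, below WT+MI, and 5 of 11 were lower in TG+MI. Their part in these differences was not tested.

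Retnla was at 163, 138 and 332 in TG+MI, where 2 of 3 arrays lay above all WT+MI arrays (1.21 ± 0.39, limma adjusted p = 0.0652). It was called higher without WT+MI 2 (adjusted p = 0.0471) or without TG+MI 2 (adjusted p = 0.0439). The other resident-type genes overlapped WT+MI: Lyve1 was at 452, 447 and 738, Cd163 at 185, 203 and 338, and Folr2 at 365, 317 and 284. Mrc1 was at 731, 889 and 616 and Timd4 at 37.3, 23.8 and 4.00, the last not well above background. Their differences from WT+MI ran from -0.28 to 0.30, with adjusted p-values of at least 0.305 in the limma fit.

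TG+MI was compared with TG to give the response to infarction in transgenic hearts. Chil3 and Arg1 rose, and Retnla, Cd163 and Folr2 fell, so 2 of 10 members were called higher and 3 of 10 lower, where 5.21% of all tested genes were called higher and 3.64% lower. The injury-type median was 2.35, or 1.26 with Arg1 and Chil3 at their lower bounds, and the resident-type median was -0.95, against 0.04 over all tested genes. This comparison and that of WT+MI with WT share no arrays. Markers of other tissue also stood apart between TG+MI and TG. The summed atrial markers were between 14608 and 62780 in TG+MI against 92784 to 291092 in TG, the adipocyte markers between 528 and 995 against 1725 to 32256, and the fibroblast markers between 53710 and 70147 against 91678 to 103349. Of the fibroblast markers 3 of 6 fell (Col1a1, Lum and Gsn), and of the neutrophil markers 4 of 11 rose (S100a8, S100a9, Cxcr2 and Retnlg). Their part in the differences of the members was not tested.

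Chil3 was at least 54.2-fold higher in TG+MI than in TG (6.08 ± 0.88, limma adjusted p = 0.00352), and Arg1 at least 5.48-fold higher (4.62 ± 1.15, adjusted p = 0.0337), each with 0 of 3 TG arrays well above background. Retnla was 3.33-fold lower (-1.73 ± 0.39, adjusted p = 0.0239), Cd163 2.48-fold lower (-1.31 ± 0.34, adjusted p = 0.0404) and Folr2 1.84-fold lower (-0.88 ± 0.21, adjusted p = 0.0279). TG+MI and TG did not overlap for any of them, but Arg1 on TG+MI 3, at 9.39, was itself not well above background. Lyve1 was lower on 2 of 3 TG+MI arrays (-0.48 ± 0.18, limma adjusted p = 0.119) and called lower without TG+MI 3 (adjusted p = 0.00612).

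Trem2 and Nos2 overlapped between TG+MI and TG, at -0.05 ± 0.29 (95% interval -0.70 to 0.60, limma adjusted p = 0.932) and 0.08 ± 0.22 (95% interval -0.40 to 0.56, adjusted p = 0.863). With the slide as a block the 5 called values were 5.69 for Chil3, 4.66 for Arg1, -1.40 for Retnla, -1.30 for Cd163 and -0.998 for Folr2. None of the 5 passed there (limma adjusted p between 0.103 and 0.349), where TG 3 is the single TG array on the slide of TG+MI and calls over all tested genes fell from 1749 to 119. Chil3 kept its call when any 1 of the 12 arrays was left out. Cd163 missed the threshold in 8 such fits (highest adjusted p = 0.128, without TG 1) and Arg1 in 8 (0.105, without TG 1). Folr2 missed it without TG 1, TG 3, TG+MI 2 or TG+MI 3 (highest 0.0988), and Retnla without TG 1, TG+MI 1 or TG+MI 2 (highest 0.0898). TG 1 is the array with the high adipocyte markers, and without it Retnla had -1.43 (adjusted p = 0.0897).

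Whether the response to infarction differed between genotypes was tested as an interaction, the difference TG+MI - TG less the difference WT+MI - WT. Trem2 and Lyve1 passed, both with a lower response in transgenic hearts, so 2 of 10 members were called lower and 0 of 10 higher (limma), with 1 higher, Retnla, at an unadjusted p under 0.05. Of all tested genes 5.85% were called higher and 3.05% lower. The member median was -0.69, against 0.14 over all tested genes. For Trem2 the difference between responses was -1.96 ± 0.42 (limma adjusted p = 0.0356), from 1.91 in wild-type and -0.05 in transgenic hearts. For Lyve1 it was -1.24 ± 0.25 (limma adjusted p = 0.0322), from 0.76 in wild-type and -0.48 in transgenic hearts. Both values start from TG arrays that lay above WT. The atrial and adipocyte markers, which were high in TG, had interaction medians of -7.78 over 4 genes and -4.39 over 7 genes, with 1 of 4 (Nppa) and 0 of 7 called lower. The summed atrial markers also lay higher in WT+MI than in WT. Their part in the Trem2 and Lyve1 values was not tested.

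Arg1 had an interaction of -4.20 ± 1.62 (95% interval -7.79 to -0.61, limma adjusted p = 0.109), Retnla 1.61 ± 0.56 (adjusted p = 0.0846) and Cd163 -1.26 ± 0.48 (adjusted p = 0.107). The remaining values were -0.85 for Chil3, -0.53 for Mrc1, -0.42 for Timd4, -0.06 for Nos2 and -0.04 for Folr2, with adjusted p-values between 0.170 and 0.932. With the slide as a block, Trem2 had -2.11 (adjusted p = 0.188) and Lyve1 -1.14 (adjusted p = 0.214), and 3 of 19761 tested genes were called. Both also missed the threshold when any 1 of WT 1, WT 2, WT 3, WT+MI 1, WT+MI 2, TG 1, TG 2 or TG+MI 1 was left out, with values from -2.10 to -1.86 for Trem2 (highest adjusted p = 0.0834) and from -1.28 to -1.13 for Lyve1 (0.0818). In these 8 fits between 58 and 672 of all tested genes were called, against 1758 with all arrays. Arg1 passed without TG+MI 2 (-5.59, adjusted p = 0.0259).

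Ordered by group mean, Arg1 and Chil3 ran WT+MI, TG+MI, WT and TG from high to low, and every WT+MI and TG+MI array of both lay above every WT and TG array, although Arg1 on TG+MI 3 was not well above background. Trem2 and Mrc1 ran WT+MI, TG, TG+MI and WT, where for Trem2 the lower 3 groups overlapped in part and for Mrc1 every pair of neighbours overlapped. Nos2 ran WT+MI, WT, TG+MI and TG, with no TG or TG+MI array as high as any WT or WT+MI array. Lyve1 ran TG, TG+MI, WT+MI and WT, where WT lay apart from the others. Cd163 ran TG, TG+MI, WT and WT+MI, where TG lay apart and the other 3 groups overlapped. Folr2 ran TG, WT, TG+MI and WT+MI, and Timd4 TG, WT, WT+MI and TG+MI, with overlap between neighbours in both. Retnla ran WT, TG, TG+MI and WT+MI, and the groups without infarction lay apart from those after it.

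The mean deviation of each type from WT summarises these values by array. The 4 injury-type genes lay 5.06, 4.38 and 3.90 above WT on the WT+MI arrays and 2.35, 3.41 and 0.47 above it on the TG+MI arrays, on the log2 scale. Arg1, which had no WT array above background, makes part of this. Without it the values were 3.46, 3.03 and 2.49 in WT+MI and 1.43, 2.08 and 0.18 in TG+MI. The 6 resident-type genes lay at -1.01, -0.18 and -0.69 in WT+MI and at -0.29, -0.40 and -0.49 in TG+MI. The means in WT+MI drew most on Retnla (-3.35), while Lyve1 (0.76) and Mrc1 (0.32) were above WT. In TG the means had the other signs, with 0.76, 0.36 and 0.51 for the resident-type and -0.80, -0.56 and -0.45 for the injury-type genes. Trem2 (0.67) and Retnla (-0.40) differed from WT against the mean of their type there. Chil3 was not well above background on any TG array, and Arg1 was so in neither TG nor WT. The members of a type did not move as one, as Lyve1 against Retnla and Nos2 against Arg1 show.

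**Figure D4:**
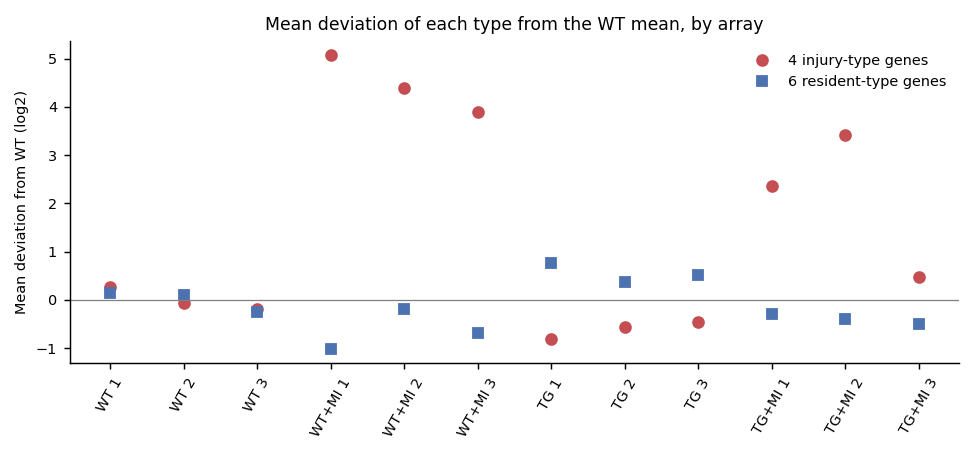
Mean deviation from the WT mean (log2) of the 4 injury-type genes (red circles) and of the 6 resident-type genes (blue squares) on each of the 12 arrays. The injury-type points reach 5.06 on WT+MI 1 and 0.47 on TG+MI 3, and the resident-type points of TG lie between 0.36 and 0.76.

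Across the 12 arrays, the level of Arg1 ran most like those of Slc10a3, Trim27 and Spcs3 (Pearson r 0.994, 0.993 and 0.992 of log2 levels). The nearest genes of Chil3 were Fpgs, Mefv and Ccl7 (0.989, 0.988 and 0.985), and those of Trem2 were Frrs1, Cfp and Kcnn4 (0.972, 0.970 and 0.966). Those of Nos2 were Cd274, Myo1e and Egfl7 (0.963, 0.943 and 0.926). Among the resident-type genes, those of Mrc1 were Ccdc106, Pdgfc and Maf (0.911, 0.858 and 0.847) and those of Cd163 were Rgs2, Chrdl1 and Eln (0.911, 0.910 and 0.898). Timd4 had Ap3m1, Nek3 and Tubd1 (0.964, 0.935 and 0.934), and Folr2 had 9230112E08Rik, Tyw3 and A530095I07Rik (0.960, 0.958 and 0.957). Lyve1 had AK142328 (0.961) and AI429363 (0.944), and Retnla had Plxnb3 (0.982) and AK045205 (0.974). The arrays share groups and slides, so these values describe the arrays and carry no test.

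Other genes of the same states were read from lists, in which the members are left out. The shares over all tested genes apply to every list. They were 18.6% called higher and 29.3% lower in WT+MI against WT, and 7.79% and 4.38% in TG+MI against WT+MI. In TG against WT they were 1.49% and 1.13%. Of 35 tested genes of recruited and injury-associated macrophages, 27 rose and 2 fell in WT+MI against WT (median 3.40, or 3.32 with genes at their bounds). In TG+MI against WT+MI 1 was higher and 18 were lower (median -1.61), against medians of -0.14 and 0.09 over all tested genes. Calls between TG+MI and WT+MI, here and in the lists below, have the limits given for the members. With the slide as a block, or without TG+MI 1, 0 of all tested genes were called, so no list gene was. Without TG+MI 3 and without WT+MI 1 the calls over all tested genes were 4 and 45. Spp1, which encodes osteopontin, was 9.61 ± 1.29 higher after infarction (limma adjusted p = 0.000407), and Saa3, a serum amyloid gene, 8.12 ± 0.97 (adjusted p = 0.000254). The level of F10, which encodes coagulation factor X, was higher by a factor of at least 87.4 (limma adjusted p = 5.7e-05). Ccr2, the receptor that draws monocytes from the blood, rose by 3.44 ± 0.76 (adjusted p = 0.00440) and was lower in TG+MI than in WT+MI (-2.70 ± 0.76, adjusted p = 0.0458).

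Of 27 tested genes of resident cardiac macrophages, 8 rose and 6 fell in WT+MI (median -0.15), where 18.6% of all tested genes rose and 29.3% fell. The chemokine genes Pf4 and Ccl24 rose, by 1.42 ± 0.31 (limma adjusted p = 0.00390) and 1.52 ± 0.51 (adjusted p = 0.0307), and Gpr34 (-1.61 ± 0.38, adjusted p = 0.00593) and the neonatal Fc receptor gene Fcgrt (-1.25 ± 0.16, adjusted p = 0.000300) fell. In TG against WT the median was 0.21, or 0.080 with 1 gene at its bound, and 0 of 27 were called by limma, with 7 higher and 0 lower at an unadjusted p under 0.05. Of 20 markers shared by macrophages, 8 rose in WT+MI (median 0.63), and 7 were lower in TG+MI than in WT+MI (median -0.92). Cd68, a lysosomal marker, rose by 1.77 ± 0.32 (limma adjusted p = 0.00153), whereas Csf1r, the receptor for colony stimulating factor 1, and Adgre1, a surface marker of macrophages, had 0.35 ± 0.28 (adjusted p = 0.333) and 0.51 ± 0.38 (adjusted p = 0.285). In TG against WT the complement gene C1qb rose by 0.64 ± 0.12 (limma adjusted p = 0.0200).

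**Figure D5:**
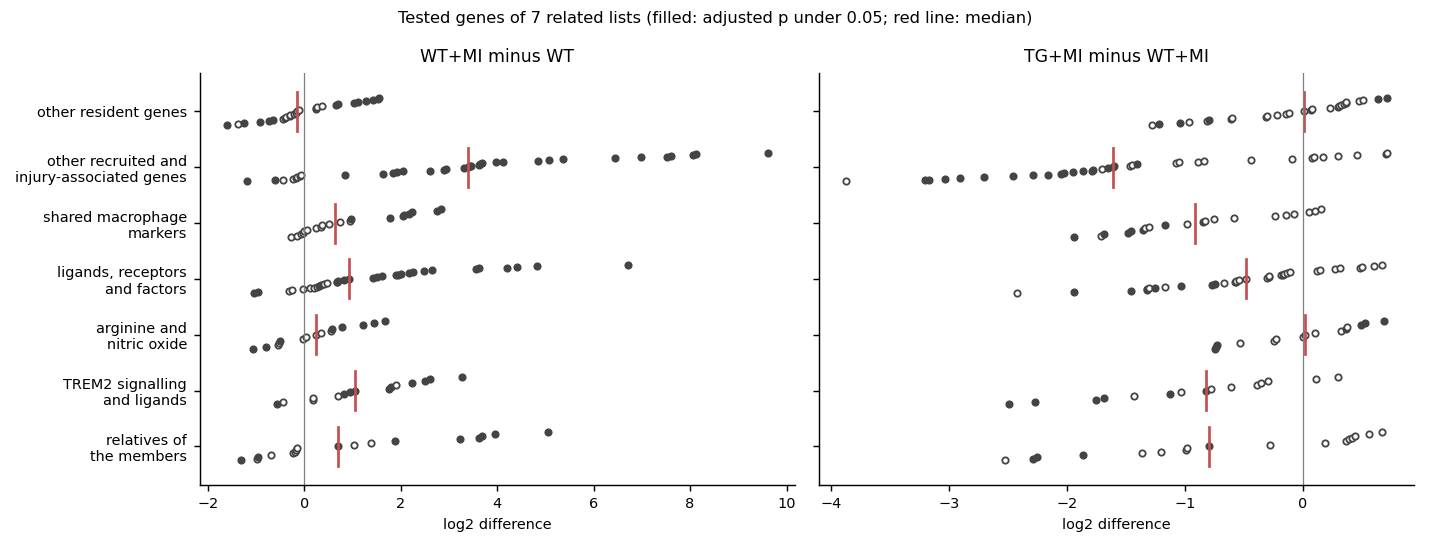
Log2 differences (x axis) of the tested genes of 7 related lists in WT+MI against WT and in TG+MI against WT+MI, 1 point a gene, filled where the limma adjusted p is under 0.05, with the list median as a red line. The recruited and injury-associated genes have medians of 3.40 and -1.61.

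Partners of the members were read the same way. A list of 15 genes held TREM2 signalling, its ligands and other receptors of the TREM family. Of these 15, 9 rose and 1 fell in WT+MI, and 6 were lower in TG+MI than in WT+MI. The family receptor genes Trem3 and Treml4 were among those that rose and among those that were lower. Tyrobp, the adaptor of TREM2, rose by 2.23 ± 0.42 (limma adjusted p = 0.00197) and was lower in TG+MI (-1.68 ± 0.42, adjusted p = 0.0354), as was the kinase gene Syk (1.79 ± 0.20, adjusted p = 0.000188, then -0.82 ± 0.20, adjusted p = 0.0345). Apoe, whose product binds TREM2, fell in WT+MI (-0.56 ± 0.17, adjusted p = 0.0174).

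Of 15 arginine and nitric oxide genes, 5 rose and 3 fell in WT+MI (median 0.24), where 18.6% of all tested genes rose and 29.3% fell. The ornithine decarboxylase gene Odc1 (1.44 ± 0.16, limma adjusted p = 0.000200) and the spermidine synthase gene Srm (1.68 ± 0.20, adjusted p = 0.000236), which act downstream of arginase, rose, and both were lower in TG+MI than in WT+MI (-0.73 ± 0.16 and -0.74 ± 0.20, adjusted p = 0.0294 and 0.0400). The list as a whole had no such direction in TG+MI against WT+MI, with 4 of 15 higher, 3 lower and a median of 0.02. The 4 were Oat (0.52 ± 0.10, limma adjusted p = 0.0263), which breaks down ornithine, the spermine synthase gene Sms (0.37 ± 0.10, adjusted p = 0.0432), Agmat (0.50 ± 0.14, adjusted p = 0.0481) and the biopterin synthesis gene Pts (0.69 ± 0.16, adjusted p = 0.0308). Ass1, which rebuilds arginine from citrulline, rose by 1.22 ± 0.18 in WT+MI (adjusted p = 0.000624), and the endothelial synthase gene Nos3 by 0.58 ± 0.16 (adjusted p = 0.0111).

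Of 33 tested ligands, receptors and factors that act on macrophage state, 23 rose and 2 fell in WT+MI (median 0.93), and 9 were lower in TG+MI than in WT+MI. Il6 exceeded its background in WT by a factor of at least 50.4 after infarction (limma adjusted p = 0.000276). Ccl2, a monocyte chemokine, rose by 4.83 ± 0.39 (adjusted p = 4.34e-05). Stat6 rose by 0.34 ± 0.12 (adjusted p = 0.0384). In TG against WT, 4 of 33 rose, the factor genes Cebpb (1.94 ± 0.25, limma adjusted p = 0.00574), Klf4 (1.40 ± 0.21, adjusted p = 0.00900), Klf2 (1.25 ± 0.24, adjusted p = 0.0253) and Stat3 (0.46 ± 0.11, adjusted p = 0.0491).

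Of 17 tested relatives of the members, 7 rose and 2 fell in WT+MI. Retnlg, a paralogue of Retnla known from neutrophils, was higher by 5.05 ± 0.88 (limma adjusted p = 0.00135) while Retnla fell. Only 1 of 3 WT arrays had Retnlg well above background, so the size of that difference is uncertain. Chil1, a relative of Chil3, was higher by a factor of at least 7.43 (limma adjusted p = 0.000183). The lower bound was 7.97-fold for Havcr2, of the same family as Timd4 (limma adjusted p = 0.000362). Mrc2, the closest relative of Mrc1 in the list, had -0.16 ± 0.21 (adjusted p = 0.549).

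The labelled tissue was checked against its markers: 7 of 7 cardiomyocyte markers were well above background on 12 of 12 arrays. Of the eosinophil and basophil markers, Prg2, Epx, Ccr3 and Mcpt8 were so on 0 of 12, Siglecf on 4 (3 of them WT+MI) and Fcer1a on 1. The mast cell markers of the same list were mostly detected, Kit and Cma1 on 12, Mcpt4 on 11 and Cpa3 on 10. Of the liver macrophage markers, Clec4f was so on 0 of 12, Marco on 3, Vsig4 on 6 and Cd5l on 12. Between 47.0% and 55.2% of probes were well above background on each array, and 0 spots were saturated.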

How the data were processed

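The authors deposited 1 Agilent Feature Extraction file per array, whose spot intensities were background-subtracted by the scanner software per the file headers, and a log2 value table with unstated steps. The build is mm9 per the file headers. From the processed intensities, log2 values of unflagged spots were averaged per probe and each array's 75th percentile over probes was subtracted. Each gene is read from its brightest probe, by the mean of the 12 arrays, and was tested where 1 or more groups had that probe well above background on 3 of 3 arrays. Of 56605 probes, 49 whose every spot was flagged an outlier on some array were left out, 1 of them a further Cd163 probe. A model of 4 group means was fitted over 19761 genes with limma 3.58.1 in R 4.3.3, with Benjamini-Hochberg adjustment at 0.05, after tests on simulated data. Genes were named through RefSeq, by accession for 32994 probes, by current symbol for 10224 and by synonym for 520. The other 12867 probes kept the name of the array design.

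The 75th percentile lay between 138 and 260 in intensity units, and the number of arrays limits the precision. A lower bound on a fold sets the mean of the bright group against, for each array of the dim group, the higher of the gene's own signal and the lowest signal of probes well above background. Medians with bounds place genes of that kind at log2 of the bound. Named are all 10 members, the 3 genes nearest to each in pattern unless named by an interval, and, as examples from the lists, some of the genes that this rule allows: up to 3 genes with the largest difference in each direction in WT+MI against WT, genes past the threshold between genotypes or in the interaction, and direct partners or paralogues of a member. The members and lists were chosen with earlier results of these data known. Whether the percentile is taken over probes or over spots was settled after values were seen, and the other form was then run as an alternative. Alternatives were normexp background correction, quantile normalization, the authors' log2 table, no filter, the mean over a gene's probes, the slide as a block or each slide alone, the replicate number as a block, and leaving out each array. Slide 2 alone and the percentile over spots were added after seeing the data.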

Additional observations from a re-analysis of the deposited data

Results flagged for a closer look

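Trem2 and Lyve1 are singled out because their response to infarction differed between genotypes by the interaction test. For Trem2 the response of transgenic hearts was lower by -1.96 ± 0.42 (log2, limma adjusted p = 0.0356): in wild-type hearts it was 1.91, with 3 of 3 WT+MI arrays above all WT arrays, and in transgenic hearts -0.05, with overlapping groups. For Lyve1 it was lower by -1.24 ± 0.25 (limma adjusted p = 0.0322): in wild-type hearts it was 0.76, and in transgenic hearts -0.48, where TG+MI 3 lay within the range of TG. With the slide as a block neither passed (limma adjusted p = 0.188 and 0.214), nor did either in 8 of the 12 fits that leave out 1 array. The TG+MI arrays were all on slide 2 and the wild-type arrays all on slide 1.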

How the results depend on the processing

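Of 18 calls among 50 member results, 7 held in every one of the 22 alternatives that gave them a value: the 6 calls of WT+MI against WT and Lyve1 in TG against WT. Chil3 in TG+MI against TG was lost with the slide as a block and slide 2 alone. No called value changed sign. The members called numbered 6 for infarction in wild-type hearts, 2 between genotypes without infarction, 3 between genotypes after it, 5 for infarction in transgenic hearts and 2 for the interaction. Leaving out 1 array gave 6, 1 to 3, 0 to 5, 1 to 5 and 0 to 3: for TG+MI against WT+MI it was 0 without WT+MI 1, TG+MI 1 or TG+MI 3 and 5 without TG+MI 2, where 45, 0, 4 and 3524 of all tested genes were called, and for TG+MI against TG it was 1 without TG 1 or TG+MI 2, 2 without TG 3 or TG+MI 1, and 3 without WT 1, WT 2, WT 3 or TG 2. In these fits of TG+MI against TG between 690 and 1330 of all tested genes were called, against 1749 with all arrays. Leaving out 1 array gave between 137 and 866 calls over all tested genes in TG against WT, against 518 with all arrays. For the interaction it gave between 58 and 2691, against 1758. With no filter the counts of the last 4 comparisons were 1, 0, 1 and 0, where 205, 14, 955 and 55 of 36981 genes were called. With the slide as a block they were 1, 0, 0 and 0, where 320, 0, 119 and 3 of all tested genes were called. Slide 2 alone, with a single TG array, gave 0 in TG+MI against TG and called 0 of all tested genes, so it says nothing on the members.

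With the replicate number as a replicate block the counts were 6, 2, 3, 2 and 2, where Cd163, Folr2 and Retnla missed the threshold in TG+MI against TG (limma adjusted p = 0.0683, 0.0574 and 0.0549). That fit called 8921, 342, 1880, 1213 and 1156 of all tested genes. Whether equal numbers pair the arrays is not known. The correlation of the deviations of same-numbered arrays was over 0.1 in 1 of 18 pairs (-0.26 to 0.12), which cannot settle it.

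Among uncalled values, the slide as a block and the single slides turned Arg1 in TG against WT to 0.017 and Nos2 in TG+MI against TG to -0.042, and normexp turned Trem2 in TG+MI against TG to 0.0068 and Timd4 in TG against WT to -0.080. Leaving out 1 array spanned 0 in TG against WT for Arg1 (-0.21 to 0.18) and Timd4 (-0.12 to 0.35), in WT+MI against WT for Nos2 (-0.047 to 0.28) and Cd163 (-0.49 to 0.18), in TG+MI against WT+MI for Cd163 (-0.080 to 0.63), Lyve1 (-0.0047 to 0.36) and Timd4 (-0.93 to 0.68), in TG+MI against TG for Nos2 (-0.13 to 0.29) and Trem2 (-0.39 to 0.30), and in the interaction for Chil3 (-1.78 to 0.16), Nos2 (-0.26 to 0.16), Folr2 (-0.22 to 0.14) and Timd4 (-1.07 to 0.55). Where no cause is named, the cause was not tested.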
